A study of Mus musculus with 14 samples.

Results

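Acyl-CoA thioesterases are enzymes that split an acyl-CoA, the activated form of a fatty acid, into the free acid and coenzyme A. The 7 genes described here are Acot1, Acot2, Acot7, Acot8, Acot9, Acot11 and Acot13, found by their symbols in a table of 24054 genes measured in mouse left ventricle. The table holds 14 libraries of messenger RNA in 3 groups, all labelled with the genotype C56Bl6. The 5 libraries labelled HFpEF-FoxO1-sh came from mice given a high-fat diet with L-NAME, labelled 6 weeks, and an adeno-associated virus (AAV) with a short hairpin RNA against FoxO1, labelled 4 weeks. The 4 HFpEF-scr libraries came from mice with the same diet and times, whose AAV carried a scrambled hairpin. Mice kept on a control diet, labelled 10 weeks, gave the 5 control libraries, and the labels name no AAV for them. Both HFpEF groups thus differ from controls in diet, L-NAME, labelled AAV and labelled weeks at once, and these cannot be told apart. L-NAME blocks nitric oxide synthases, and the pairing with fat feeding is a model of heart failure with preserved ejection fraction (HFpEF). The labels name neither the promoter nor the serotype of the AAV, nor the age or sex of the mice, and they do not say that replicates are separate animals. The p-values below therefore measure the spread between these libraries.

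The heart burns fatty acids as its main fuel. Fatty acids are activated to acyl-CoA by synthetases, carried into mitochondria as carnitine esters and oxidised there. Thioesterases run against the activation step, release coenzyme A, and are placed in several compartments of the cell. Acot1 acts in the cytosol and Acot2 in the mitochondrial matrix, and both take long-chain acyl-CoA and are known in rodents as targets of PPAR alpha, the nuclear receptor that switches on fatty acid oxidation. Acot9 and Acot13 are also linked to mitochondria. Acot8 is peroxisomal. Acot7, abundant in brain, is mainly cytosolic, and Acot11 was first known as a thioesterase of brown fat with a lipid-binding START domain. Acot1 and Acot2 belong to the type I family with an alpha/beta-hydrolase fold, and the other 5 to the type II family with a hotdog fold.

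Acot1 and Acot2 lie side by side on the plus strand of chromosome 12 (GRCm38, GENCODE vM21). Acot2 (ENSMUSG00000021226.7) spans 83987861 to 83993873 and Acot1 (ENSMUSG00000072949.6) spans 84009490 to 84018371, with 15616 bases between them, and each has 3 exons in its first annotated transcript. Acot4, Acot3, Acot5 and Acot6 follow on the same strand, and the 6 genes take up 123489 bases. The coding sequences of Acot1 (1257 bases) and Acot2 (1359 bases) align over 1236 bases, of which 58 differ, so they are 95.3% identical. The 123 coding bases at the start of Acot2 have no partner in Acot1. The most different stretch of 60 coding bases is shown because reads from such stretches can tell the paralogs apart, and the 13 bases in capitals are those that differ. The Acot1 stretch lies at chr12:84016942-84017001 and the Acot2 stretch at chr12:83992664-83992723, both read on the plus strand from the GENCODE vM21 transcripts.
Acot1: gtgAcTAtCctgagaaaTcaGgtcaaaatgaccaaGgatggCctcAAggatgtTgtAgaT
Acot2: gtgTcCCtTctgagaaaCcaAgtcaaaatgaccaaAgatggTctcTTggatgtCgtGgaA
Elsewhere the copies cannot be told apart over long runs, the longest of which is 273 identical bases, coding bases 887 to 1159 of Acot1. Of all 100-base stretches of the annotated transcripts, 21.9% of those of Acot1 occur in other genes, all of the same cluster, and 17.1% of those of Acot2 occur in Acot1. Of the 50-base stretches, 33.6% of those of Acot1 and 27.7% of those of Acot2 occur in other genes, for Acot1 also outside the cluster. A read from such a stretch is divided between genes by estimation, so the split between Acot1 and Acot2 is uncertain. Their sum is less so, but it too can hold reads shared with other genes. The deposited expected counts of both genes were not whole numbers in any of the 14 libraries, as was also the case for Acot11.

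Acot1 and Acot2 were the members with higher transcript levels in both HFpEF groups than in controls. Acot1 was present at 34.7, 39.1, 36.8, 42.6 and 44.1 CPM, that is counts per 1000000 after scaling between libraries, in the libraries labelled HFpEF-FoxO1-sh, at 30, 57.8, 32.2 and 38.3 CPM in HFpEF-scr, and at 14.2, 9.13, 11.2, 17.4 and 10.6 CPM in controls. Every HFpEF library was above every control library, and the HFpEF groups overlapped each other. Groups that did not overlap were seen in 8.93% of all genes in HFpEF-scr against control and in 12.1% in HFpEF-FoxO1-sh against control. Acot2 was present at 255, 266, 246, 266 and 251 CPM in the libraries labelled HFpEF-FoxO1-sh, at 193, 271, 229 and 247 CPM in HFpEF-scr, and at 117, 99.4, 116, 162 and 113 CPM in controls. The same order held for Acot2, with control 4 the highest control and HFpEF-scr 1 the lowest HFpEF library.

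Mean Acot1 was 39.5 ± 3.89 CPM in the libraries labelled HFpEF-FoxO1-sh (SD, n = 5), 39.6 ± 12.6 CPM in HFpEF-scr (n = 4) and 12.5 ± 3.29 CPM in controls (n = 5). The fitted log2 fold change of HFpEF-scr against control was 1.65 ± 0.19 (SE), a 3.14-fold level with a 95% interval of 1.26 to 2.05 on the log2 scale. For HFpEF-FoxO1-sh against control it was 1.65 ± 0.18, or 3.13-fold. The HFpEF-scr libraries were the more spread out, since HFpEF-scr 2 alone reached 57.8 CPM. Without HFpEF-scr 2 the log2 fold change of HFpEF-scr against control was 1.41.

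Mean Acot2 was 257 ± 8.82 CPM in the libraries labelled HFpEF-FoxO1-sh, 235 ± 32.8 CPM in HFpEF-scr and 121 ± 23.6 CPM in controls (SD). The log2 fold change was 0.95 ± 0.11 for HFpEF-scr against control, or 1.94-fold, and 1.08 ± 0.11 for HFpEF-FoxO1-sh against control, or 2.12-fold. The mitochondrial paralog was thus the more abundant of the pair in each group and had the smaller fold change.

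**Figure D1:**
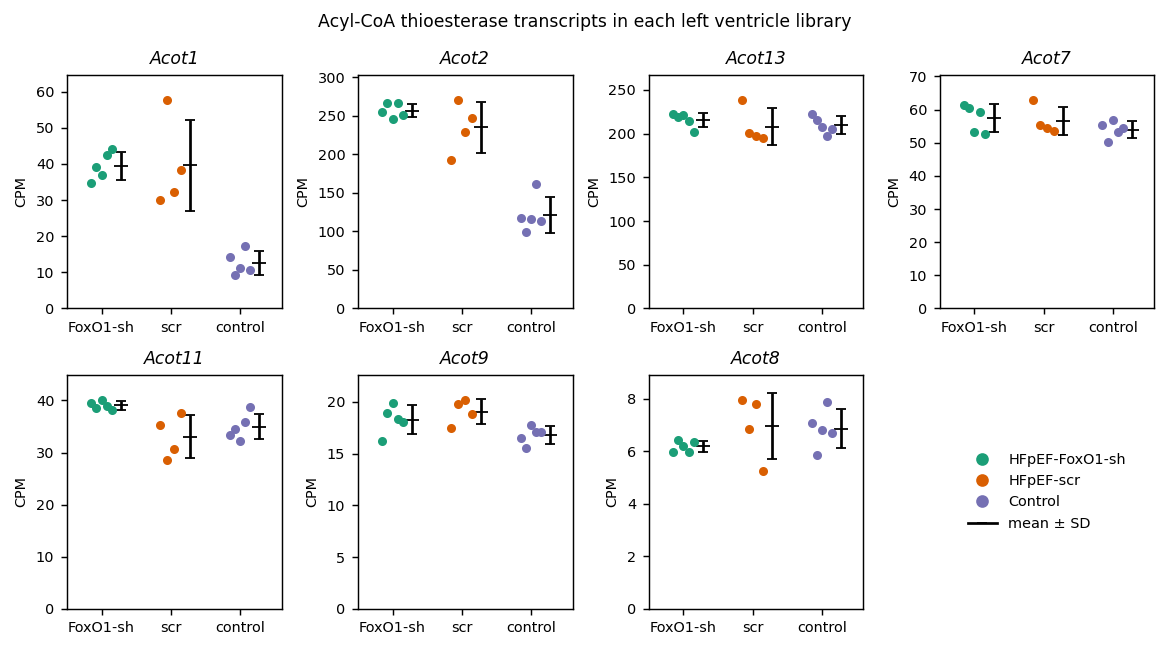
Level of each of the 7 members in each library (points, CPM), with group means and SD beside the points, for HFpEF-FoxO1-sh, HFpEF-scr and control. Acot1 and Acot2 lie higher in all 9 HFpEF libraries than in all 5 controls, whereas the groups overlap for the other members against control.

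The family was selected on values from these same libraries, with the difference in Acot1 between HFpEF-scr and control among the results already known. Which other values played a part is not recorded, so the fold changes and calls of the members in all 3 comparisons are given as descriptions, and nothing is read from them. A gene was called where edgeR's quasi-likelihood test, fitted over all 13588 genes tested, gave an adjusted p (Benjamini-Hochberg) under 0.05. All 7 members passed the filter on low counts. In HFpEF-scr against control, 2 of 7 members were called, both higher, beside 7.37% of all genes called either way, 3.66% called higher and 3.70% called lower. In HFpEF-FoxO1-sh against control the same 2 members, Acot1 and Acot2, were called higher, beside 13.0% of all genes called either way, 6.68% called higher and 6.28% called lower. In HFpEF-FoxO1-sh against HFpEF-scr 0 of 7 were called, beside 3.58% of all genes called either way, 1.32% higher and 2.26% lower. The median log2 fold change of the members was 0.07, 0.12 and 0.02 in these comparisons, and the median of all genes tested was 0.00163, -0.00303 and 0.00442. Both HFpEF groups were set against the same 5 controls, so the 2 comparisons with control are not independent of each other.

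**Figure D2:**
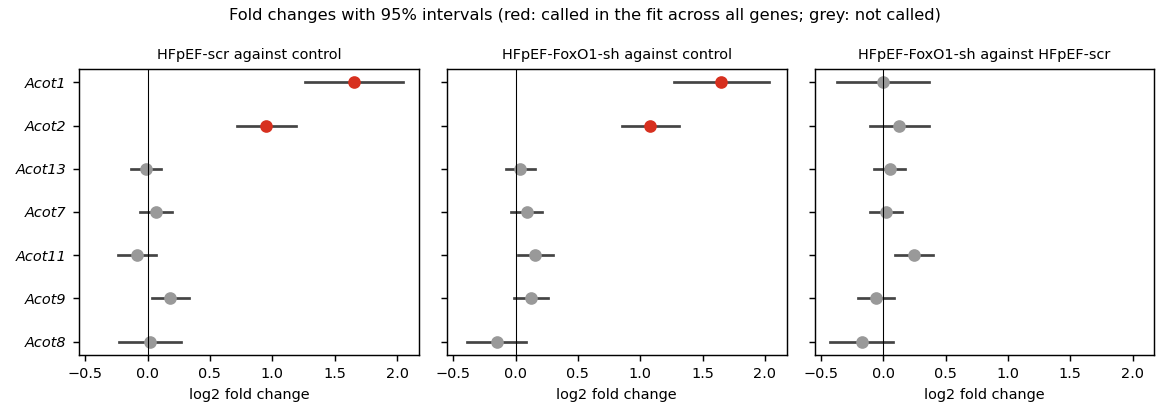
Log2 fold change of each member with its 95% interval in the 3 comparisons, with called members in red and the others in grey. Acot1 and Acot2 lie near 1.65 and 1 against control in both HFpEF groups, and the intervals of both include 0 between the HFpEF groups.

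The share of Acot1 in the counts of both paralogs differed as well. Acot1 made up 12 to 14.9% of the sum of both genes in the libraries labelled HFpEF-FoxO1-sh, 12.3 to 17.6% in HFpEF-scr and 8.38 to 10.8% in controls. The means were 13.3 ± 1.11%, 14.2 ± 2.3% and 9.26 ± 1.02% in that order (SD). Neither HFpEF group overlapped the controls in this share. How often the ratio of 2 genes separates the groups was not computed. Both genes are members of the selected family, so nothing is read from the separation. This ratio rests on how reads shared by the copies were divided, so the pair was also counted as a single gene. Together Acot1 and Acot2 reached 296 ± 10.5 CPM in the libraries labelled HFpEF-FoxO1-sh, 275 ± 44.2 CPM in HFpEF-scr and 134 ± 26.7 CPM in controls. The log2 fold change of the sum was 1.04 ± 0.12 for HFpEF-scr against control, 1.15 ± 0.11 for HFpEF-FoxO1-sh against control and 0.11 ± 0.12 for HFpEF-FoxO1-sh against HFpEF-scr.

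**Figure D3:**
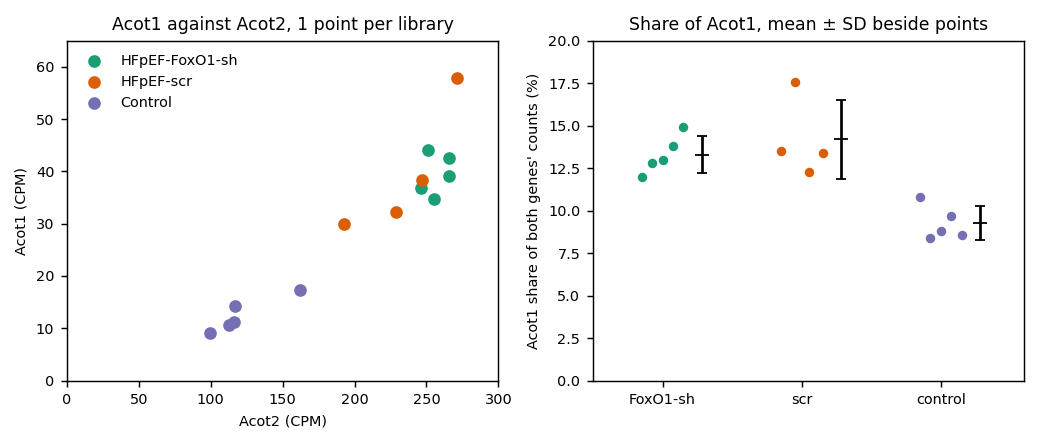
Left, Acot1 against Acot2 in CPM, with 1 point per library. Right, the share of Acot1 in the summed counts of both genes (%), with mean and SD beside the points. Control libraries lie at the lower left and at shares up to 10.8%, and HFpEF libraries at shares of 12% or more.

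Across the 14 libraries Acot1 and Acot2 had a Pearson correlation of log2 CPM of 0.98. After each group was centred on its own mean, which takes out the difference between groups, it was 0.85. The paralogs share reads, and all values share the scaling of their library, so this is a description. Between Acot1 and the type II members, the correlation after centring lay between -0.45 (Acot13) and 0.35 (Acot9). For Acot2 it lay between -0.62 (Acot13) and 0.39 (Acot9).

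None of the 5 type II members was called by edgeR in the fit of all 14 libraries in any of the 3 comparisons. Of all genes, 7.37% were called either way in HFpEF-scr against control and 13.0% in HFpEF-FoxO1-sh against control. The share was 3.58% in HFpEF-FoxO1-sh against HFpEF-scr. At such shares 0 of 5 is not unusual, so nothing is read from it. Summed, they reached 317 to 346 CPM in the libraries labelled HFpEF-FoxO1-sh, 310 to 363 CPM in HFpEF-scr and 311 to 336 CPM in controls. All 7 members summed to 633 ± 15 CPM, 598 ± 30 CPM and 457 ± 22.8 CPM in the same order (SD), and the HFpEF groups did not overlap the controls. That sum counts Acot1 and Acot2 again, and without this pair the groups overlapped, as the type II sums above show. Nothing is read from the separation of the 7-gene sum, since the family was selected on these libraries. Acot2 alone was 40.6 ± 0.763% of that sum in the libraries labelled HFpEF-FoxO1-sh, 39.2 ± 4.25% in HFpEF-scr and 26.5 ± 3.8% in controls.

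Acot13 (chromosome 13, 24817948 to 24831540, minus strand), a small mitochondria-associated thioesterase also called Them2, ranged over 202 to 223 CPM, 195 to 239 CPM and 197 to 223 CPM in HFpEF-FoxO1-sh, HFpEF-scr and control. Its log2 fold change was -0.01 ± 0.06 for HFpEF-scr against control, with an interval of -0.14 to 0.11. Its levels overlapped between all groups.

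Acot9 (chromosome X, 155262443 to 155297654, plus strand), a mitochondrial thioesterase, ranged over 16.2 to 19.9 CPM, 17.5 to 20.2 CPM and 15.5 to 17.8 CPM in the same order. HFpEF-scr and control overlapped only between 17.5 and 17.8 CPM, and the log2 fold change was 0.18 ± 0.07, which was not called. Of its 50-base stretches 20.2%, and of its 100-base stretches 0.968%, also occur in Acot10, a gene with at most 4.12 expected counts in any library.

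Acot8 (chromosome 2, 164792765 to 164804882, minus strand), the peroxisomal member, was the lowest in CPM, at 5.98 to 6.42 CPM, 5.24 to 7.95 CPM and 5.86 to 7.88 CPM in the same order. The groups overlapped, and its log2 fold change against control was 0.02 ± 0.12 in HFpEF-scr and -0.15 ± 0.11 in HFpEF-FoxO1-sh. Of its exon bases, 12.3% overlap Snx21 on the other strand, which was at 21.1 to 26 CPM, and reads of the pair cannot be told apart without strand.

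Acot7 (chromosome 4, 152178134 to 152271855, plus strand), the cytosolic member known from brain, ranged over 52.7 to 61.4 CPM, 53.6 to 63 CPM and 50.1 to 56.7 CPM in the same order. Its log2 fold change was 0.07 ± 0.06 for HFpEF-scr against control and 0.09 ± 0.06 for HFpEF-FoxO1-sh against control. All groups overlapped.

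Acot11 (chromosome 4, 106744555 to 106804998, minus strand), the START-domain member, was the one member whose levels did not overlap between the HFpEF groups. It was present at 39.6, 38.5, 40.1, 38.9 and 38.1 CPM in the libraries labelled HFpEF-FoxO1-sh, at 35.2, 28.6, 30.7 and 37.6 CPM in HFpEF-scr, and at 33.4, 34.6, 32.3, 35.9 and 38.7 CPM in controls. The nearest libraries, at 38.1 CPM in HFpEF-FoxO1-sh and 37.6 CPM in HFpEF-scr, were almost equal. Groups that did not overlap were seen in 8.34% of all genes in that comparison. The log2 fold change of 0.24 ± 0.07 was not called by edgeR. DESeq2 called it, with a log2 fold change of 0.24, and so did edgeR without HFpEF-scr 4, with 0.31. It was not called under the other 17 of 19 alternatives, and its log2 fold change was 0.17 with the clock index as a covariate. Of the exon bases of Acot11, 20.9% overlap Fam151a on the other strand, which was at no more than 0.276 CPM.

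Between the HFpEF groups the other members had intervals that include 0. For Acot1 their difference (HFpEF-FoxO1-sh over HFpEF-scr) was -0.0037 ± 0.18 log2, with a 95% interval of -0.38 to 0.37. It ran from -0.11 to 0.24 when 1 library was left out, the highest value being that without HFpEF-scr 2. For Acot2 it was 0.13 ± 0.11, with an interval of -0.11 to 0.36. Foxo1 itself, the gene the hairpin is labelled for, was at 41.5, 46, 39.3, 43.8 and 41.4 CPM in the libraries labelled HFpEF-FoxO1-sh, at 44.8, 48.3, 41 and 40.1 CPM in HFpEF-scr and at 44.2, 42.2, 42.4, 47 and 44.4 CPM in controls. Its transcript was not detectably lower in the libraries labelled for its hairpin, with a log2 fold change against HFpEF-scr of -0.04 ± 0.06 (edgeR adjusted p = 0.78).

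Per kilobase of annotated exon, which allows genes to be compared, the order of mean levels in controls was Acot13 (282 CPM per kb), Acot2 (55.3), Acot7 (25.4), Acot9 (7.39), Acot11 (5.78), Acot8 (3.43) and Acot1 (3.19). Acot8 and Acot1 did not differ beyond their spread in controls, at 2.93 to 3.95 and 2.33 to 4.44 CPM per kb. The other neighbours in this order did not overlap in controls. In the libraries labelled HFpEF-FoxO1-sh, Acot1 reached 8.85 to 11.3 CPM per kb, which lay above Acot9 at 7.13 to 8.75. In HFpEF-scr, Acot1 ranged over 7.66 to 14.7 and overlapped Acot9 at 7.7 to 8.89 CPM per kb. With the length of the first annotated transcript instead, Acot1 lay above Acot9 in both HFpEF groups, at 15.3 to 19.4 against 9.25 to 11.4 CPM per kb in the libraries labelled HFpEF-FoxO1-sh and at 13.2 to 25.4 against 9.99 to 11.5 in HFpEF-scr. By that length Acot11 came before Acot9 in controls, at 11.9 and 9.59 CPM per kb, so the place of Acot9 in the order depends on the length used.

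The other thioesterase genes were low. Of 9 further family genes in the table, Acot5, Acot10, Acot12, Them5 and Baat were too low to be tested, with at most 4.12 expected counts in a library. Acot3, Acot4, Acot6 and Them4 were tested, and none was called in HFpEF-scr against control or in HFpEF-FoxO1-sh against HFpEF-scr. Acot3, a peroxisomal enzyme of the same chromosome 12 cluster, was called higher in HFpEF-FoxO1-sh against control, at 1.93 ± 0.388 CPM against 1.22 ± 0.152 CPM (SD, log2 fold change 0.65 ± 0.19, edgeR adjusted p = 0.0343). That call was lost without a filter on low counts (adjusted p = 0.0559), with DESeq2 (0.0567) and with the clock index as a covariate (0.0822). It was also lost without control 1, 2 or 3, or HFpEF-FoxO1-sh 3 or 4, with adjusted p up to 0.0945. Acot3 had only 12.87 to 36.37 expected counts per library, and 14.3% of its 100-base stretches occur in other genes, Acot1 among them. The part of shared reads in the values of Acot3 was not tested. Mitochondrial Them4 was at 10.3 ± 0.371 CPM, 9.02 ± 0.858 CPM and 10.3 ± 1.16 CPM in HFpEF-FoxO1-sh, HFpEF-scr and control. Acot4, at 2.18, 1.67 and 1.73 CPM, and Acot6, at 2.37, 2.42 and 2.18 CPM, had means within the spread of the groups. The higher levels in the HFpEF groups within the cluster of 6 genes were thus seen for the pair Acot2 and Acot1 at one end of it, with Acot3 uncertain.

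The genes on either side of the thioesterase reaction were counted in lists, all of them chosen with earlier results of these data known. Among 13 acyl-CoA synthetases and fatty acid transporters tested, which make the substrate, 3 were called higher and 0 lower in HFpEF-scr against control, and 4 higher and 1 lower in HFpEF-FoxO1-sh against control. Acsl1, the main long-chain synthetase of the heart, rose by 0.22 ± 0.05 log2 in HFpEF-scr (edgeR adjusted p = 0.0108) and by 0.32 ± 0.04 in HFpEF-FoxO1-sh (0.000258), each against control. With the mean of immediate early genes as a covariate all 3 calls in HFpEF-scr were lost (edgeR adjusted p = 0.0767 for Acsl1, 0.0727 for Acsf2 and 0.0969 for Acsm5). Acsf2 and Acsm5 also lost theirs in a fit of only the 2 groups, and Acsm5 without control 3, control 5, HFpEF-scr 2 or HFpEF-scr 4. The list medians were 0.0079 and 0.07. Of 5 acyl-CoA binding proteins, 2 (Dbi and Acbd5) were called higher in both comparisons with control. The list medians were 0.09 in HFpEF-scr and -0.01 in HFpEF-FoxO1-sh, where 3 of the 5 were below 0. Acbd5 lost its call in HFpEF-scr with the immediate early covariate (edgeR adjusted p = 0.0639). Dbi, which encodes the acyl-CoA binding protein, was at 140 ± 8.52 CPM in the libraries labelled HFpEF-FoxO1-sh and 85.6 ± 3.43 CPM in controls, a log2 fold change of 0.71 ± 0.06 (edgeR adjusted p = 3.94e-06), and rose by 0.59 ± 0.06 in HFpEF-scr.

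The carnitine shuttle carries fatty acids into mitochondria as carnitine esters. It had 4 of 8 genes called higher in HFpEF-scr and 6 of 8 in HFpEF-FoxO1-sh, each against control, and none lower. Its list medians were 0.27 and 0.39. Cpt2, the inner-membrane transferase, rose by 0.44 ± 0.06 and 0.58 ± 0.06 log2 in HFpEF-scr and HFpEF-FoxO1-sh (edgeR adjusted p = 0.000532 and 1.5e-05). Slc25a20, the carnitine-acylcarnitine carrier, rose by 0.42 ± 0.07 and 0.63 ± 0.06 (edgeR adjusted p = 0.00198 and 1.9e-05). Of 22 genes of acyl-CoA oxidation, 13 were called higher and 1 lower in HFpEF-scr, and 17 higher and 0 lower in HFpEF-FoxO1-sh, with medians of 0.22 and 0.36. Decr1, the mitochondrial dienoyl-CoA reductase, rose by 0.70 ± 0.06 and 0.83 ± 0.06 log2 (edgeR adjusted p = 1.1e-05 and 6.52e-07). The fold changes of Acot1 and Acot2 against control were above that of Decr1, the highest of the oxidation list, in both comparisons. The family was selected on values from these same libraries, so nothing is read from this order.

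Thioesterases also feed the coenzyme A pool. Of 12 genes of that pool tested, 0 were called in HFpEF-scr against control and 3 were called higher in HFpEF-FoxO1-sh against control, with medians of 0.03 and 0.06. Nudt7, a peroxisomal hydrolase of coenzyme A, rose by 0.40 ± 0.07 in the second comparison (edgeR adjusted p = 0.00184). The other 2, the kinase Pank2 (0.22 ± 0.06, edgeR adjusted p = 0.0246) and the carrier Slc25a42 (0.32 ± 0.10, 0.0368), lost their calls with the clock index as a covariate and in some fits without 1 library, namely those without control 1 or 2 or HFpEF-FoxO1-sh 2 or 5 for both genes, and without control 3 or 5 or HFpEF-FoxO1-sh 1 or 4 for Slc25a42. The call of Slc25a42 was also lost with the red cell score as a covariate.

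PPAR targets other than the thioesterases had 17 of 23 genes called higher in HFpEF-scr and 20 of 23 in HFpEF-FoxO1-sh, each against control, and none lower, with medians of 0.44 and 0.58. This list shares genes with the carnitine and oxidation lists, Decr1 and Slc25a20 among them. Cidea, a lipid droplet protein, rose by 0.71 ± 0.07 log2 in HFpEF-scr against control (edgeR adjusted p = 2.87e-05). Fabp3, the fatty acid binding protein of heart muscle, rose by 0.62 ± 0.05 log2 in HFpEF-FoxO1-sh against control (edgeR adjusted p = 1.13e-06). The list of 14 PPAR regulators held receptors, their partners, coactivators, corepressors and related transcription factors. Of these, 0 were called in HFpEF-scr and 1 was called lower in HFpEF-FoxO1-sh, each against control. The gene called was Lpin1, a coactivator of PPAR alpha (-0.35 ± 0.07, edgeR adjusted p = 0.00398). Ppara itself had log2 fold changes of 0.18 ± 0.12 and 0.03 ± 0.12 against control and was called in neither comparison (edgeR adjusted p = 0.39 and 0.905).

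In HFpEF-FoxO1-sh against HFpEF-scr, 3 of 22 oxidation genes were called higher and 0 genes were called in the lists of synthetases, binding proteins, carnitine shuttle, coenzyme A pool, PPAR targets and PPAR regulators. All 22 oxidation genes had a log2 fold change above 0, with a median of 0.15 beside 0.00442 for all genes tested. The most significant was Echs1, the short-chain enoyl-CoA hydratase, at 0.18 ± 0.03 (edgeR adjusted p = 0.011). The other called genes were Etfa, a subunit of the electron transfer flavoprotein, at 0.17 ± 0.04 (0.0199 by the same test), and Ehhadh, the peroxisomal bifunctional enzyme, at 0.44 ± 0.10 (0.0284). With the clock index as a covariate all 3 calls were lost (edgeR adjusted p = 0.106 for Echs1, 0.17 for Etfa and 0.2 for Ehhadh). The calls of Etfa and Ehhadh were also lost with the replicate block (edgeR adjusted p = 0.0538 and 0.057), with the immediate early score as a covariate (both 0.0654) and without HFpEF-FoxO1-sh 1. That of Ehhadh was lost without HFpEF-scr 1 or 3 or HFpEF-FoxO1-sh 4 as well. Other genes gained a call under some alternatives. Slc25a20 and Nudt7 were called higher in a fit of only the 2 groups (edgeR adjusted p = 0.0408 and 0.03). Nudt7 and Fabp3 were called higher with DESeq2 (DESeq2 adjusted p = 0.017 and 0.0468). In the same comparison all 7 cardiomyocyte markers were above 0 (median 0.08, none called), while all 6 fibroblast markers (median -0.30, 2 called lower) and all 5 macrophage markers (median -0.41, 2 called lower) were below 0. The 6 pericyte and smooth muscle markers were also below 0 (median -0.19, none called), and of 6 endothelial markers 4 were below 0 and 1 was called lower. The part of these markers in the fold changes of the oxidation genes was not tested.

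**Figure D4:**
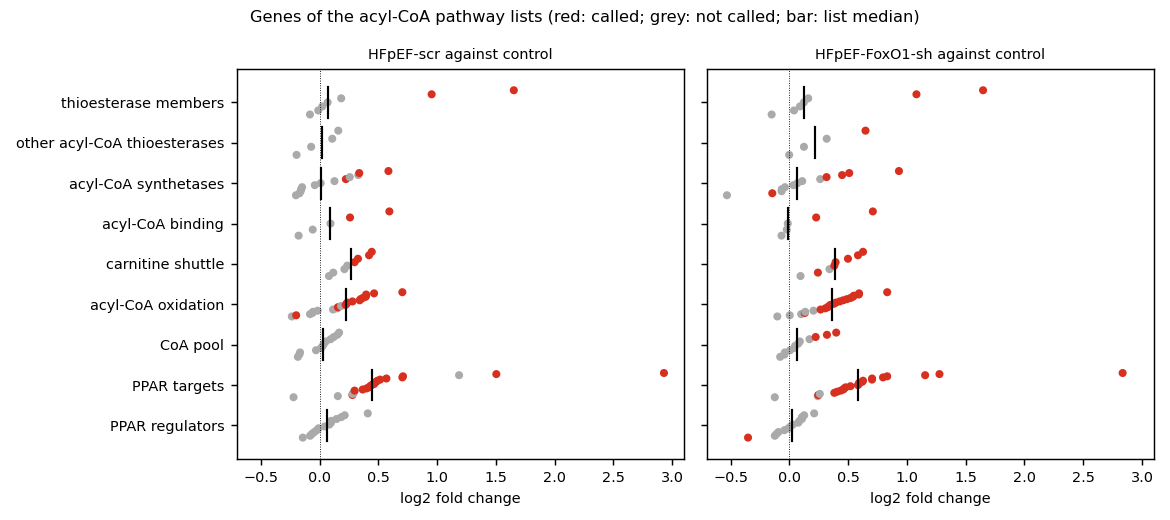
Log2 fold change of each gene of the lists (points) in HFpEF-scr against control (left) and HFpEF-FoxO1-sh against control (right), with called genes in red, others in grey and a bar at each list median. The lists of carnitine shuttle, oxidation and PPAR targets have medians of 0.22 to 0.58 against control. Those of synthetases, binding proteins, coenzyme A pool and PPAR regulators have medians below 0.1.

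Genes with the pattern most like each of the called members were drawn from 11312 genes by the Pearson correlation of log2 CPM over 14 libraries. For Acot1 they included Cd36, the fatty acid importer (0.98), Ephx2, the soluble epoxide hydrolase (0.974), Retsat, a retinol saturase (0.973), and Tmem66 (0.969). For Acot2 they were Cpt1b, the muscle carnitine palmitoyltransferase that admits fatty acids to mitochondria (0.991), Hadha, a subunit of the trifunctional oxidation enzyme (0.986), Cat, the peroxisomal catalase (0.986), Ephx2 (0.985) and Decr1 (0.985). After each group was centred, the correlation with Acot1 was 0.82 for Cd36 and that with Acot2 was 0.96 for Cpt1b. The groups lie apart and all values share their libraries, so no test is given. Control 4 was the highest control for Acot1, Acot2 and Cpt1b, and HFpEF-scr 1 was the lowest HFpEF library for the same 3 genes.

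**Figure D5:**
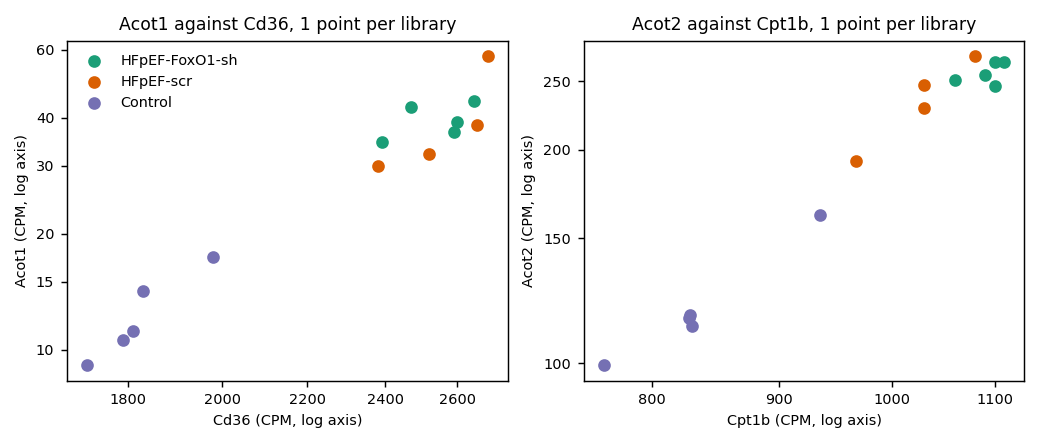
Acot1 against Cd36 (left) and Acot2 against Cpt1b (right) in CPM on log axes, with 1 point per library. Controls lie at the lower left in both panels, and within the HFpEF-scr libraries Acot2 and Cpt1b still rise together. The HFpEF-FoxO1-sh libraries cover a narrow range, 246 to 266 CPM for Acot2 and 1060 to 1110 CPM for Cpt1b.

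The start regions of the pair are shown because both genes were higher in the same libraries. RefSeq (GRCm38.p6) windows from 250 bases before to 50 bases after the start were found for 6 of the 7 members, all but Acot13. The 250 bases before the start are chr12:84009252-84009501 for Acot1 and chr12:83987611-83987860 for Acot2, both on the plus strand. Neither has letters in capitals, because none of the motifs searched was found.
Acot1: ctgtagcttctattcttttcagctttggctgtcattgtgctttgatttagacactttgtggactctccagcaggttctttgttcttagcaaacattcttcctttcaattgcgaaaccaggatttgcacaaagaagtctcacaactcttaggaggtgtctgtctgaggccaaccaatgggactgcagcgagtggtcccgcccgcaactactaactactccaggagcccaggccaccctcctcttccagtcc
Acot2: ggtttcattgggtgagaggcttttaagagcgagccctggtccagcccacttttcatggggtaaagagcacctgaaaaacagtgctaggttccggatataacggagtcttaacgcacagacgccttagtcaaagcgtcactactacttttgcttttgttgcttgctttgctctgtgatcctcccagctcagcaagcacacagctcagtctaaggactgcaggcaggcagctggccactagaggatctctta
In contrast to the coding sequences, with their identical run of 273 bases, the longest run that these 250 bases share on the same strand is 9 bases. The motifs searched on both strands over the 300 bases were the direct repeat bound by PPAR with its partner RXR (AGGTCA, any 1 base, AGGTCA), its part AGGTCA, the FoxO core GTAAACA and the E-box CACGTG. They occur in 0.0396%, 16.3%, 3.65% and 7.15% of all 32851 windows in that order, and AGGTCA also matches within the direct repeat. Among the members, CACGTG was found in 1 window of Acot11, at position -154 from the start, and there was no other match. A missing match says only that these letters are not in these 300 bases.

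Library totals ran from 13174118 to 21247155 counts, with 16094 to 16509 genes above 0. Acot8 had the fewest expected counts of the members, 74 to 151 per library, and Acot1 had 122.52 to 833.71. Markers of cardiomyocytes summed to 84600 to 94700 CPM in the libraries labelled HFpEF-FoxO1-sh, 80100 to 90200 CPM in HFpEF-scr and 90400 to 97500 CPM in controls. In HFpEF-scr against control all 7 had log2 fold changes below 0, and 2, Myh6 and Myl2, were called lower. All 6 fibroblast markers and 5 of 6 pericyte and smooth muscle markers were above 0 there, with 2 of each called higher. Of 6 endothelial markers 2 were above 0 and 1 was called higher, and 4 of 5 macrophage markers were below 0 with none called. Of all genes 3.66% were called higher and 3.70% lower in that comparison. In such bulk tissue fewer cells of a type and less RNA per cell cannot be told apart. Adipocyte markers summed to no more than 0.531, 0.208 and 1.56 CPM in the same order, so markers of fat, a tissue where Acot11 is known, were near 0 in every library. Macrophage markers summed to 101 to 132 CPM, 141 to 175 CPM and 154 to 206 CPM, and all 5 tested were called lower in HFpEF-FoxO1-sh against control. The part of these cell type markers in the members' values was not tested. Red cell markers summed to 700 to 1630 CPM, 520 to 5760 CPM and 991 to 1420 CPM, with HFpEF-scr 1 the highest. The mean log2 CPM of immediate early genes, which respond to handling and stress within minutes, was 3.64 to 5.72, 4.81 to 6.84 and 3.54 to 6.15. With that mean as a covariate the log2 fold change of HFpEF-scr against control was 1.43 for Acot1 and 0.88 for Acot2, and both stayed called.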

How the data were processed

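Per the labels' protocols, left ventricular RNA was extracted with an RNeasy kit, polyadenylated RNA was selected on beads, and a Swift Biosciences kit was used for the libraries. The submitters' processing notes name Bowtie2 2.1.0, RSEM 1.2.15 and mm10. The table that the authors deposited holds expected counts per gene, of which 15.1 to 16.4% per library were not whole. Annotation, read layout and strand are not given in the sources used here. Each column's number was matched to the number in a sample's labels, and no column was left over.

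After rounding, they were tested with edgeR 4.0.16 in R 4.3.3 (filterByExpr, TMM, quasi-likelihood F-test, two-sided) in 1 fit of all 14 libraries with 3 group coefficients, which kept 13588 of 24054 genes. Among the genes, 27 bear names turned into dates. P-values were adjusted by Benjamini-Hochberg over these genes, and calls were made under 0.05. CPM were computed after TMM, log2 CPM have a prior count of 2, and SE were derived from the F statistic. The fit was tested on simulated data. Positions and exon lengths are from GENCODE vM21, and sequences were compared with Biopython 1.88. Figures were drawn with matplotlib 3.10.9.

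The members and gene lists were chosen with earlier results of these data known. By rule all members were named, with at most 3 genes per list and comparison, those called with the smallest p, the further family genes, Foxo1 and the 5 genes most like each called member among those with a mean of at least 2 CPM. Cpt1b, Hadha, Cat and the other like genes come from that last part. Of the genes this rule takes, 1 is not reported here by name. Ppara, Myh6, Myl2, Snx21 and Fam151a were named outside the rule, after their values were seen. The clock index is the mean log2 CPM of 10 clock genes such as Dbp less that of 5 such as Arntl. Alternatives were DESeq2 1.42.0 and its size factors, limma voom (limma 3.58.1), no filter or at least 10 counts in every library, only the groups compared, the replicate number as a block, covariates for immediate early genes, clock and red cells, the pair counted together, and leaving out each library.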

Additional observations from a re-analysis of the deposited data

Results flagged for a closer look

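In 21 groups of members and libraries, 3 had a library set apart from the others of its group by Dixon's 95% limit, where chance marks about 1 group in 20. Acot2 was at 162 CPM in control 4, and the next control was at 117 CPM. Acot7 was at 63 CPM in HFpEF-scr 1, with the next HFpEF-scr library at 55.2 CPM. Acot13 was at 239 CPM in HFpEF-scr 1, with the next at 201 CPM. HFpEF-scr 1 was also the library with the highest red cell score, a mean log2 CPM of 8.55, and whether that bears on Acot7 and Acot13 was not tested.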

How the results depend on the processing

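Acot1 and Acot2 were called higher against control, in HFpEF-scr and in HFpEF-FoxO1-sh, under each alternative run. These fits reuse the values from which the family was selected, so they describe the effect of the settings and give the calls no further weight. For HFpEF-scr the log2 fold change ran from 1.41 to 1.79 for Acot1 and from 0.875 to 1.08 for Acot2. For HFpEF-FoxO1-sh it ran from 1.56 to 1.79 for Acot1 and from 1.02 to 1.21 for Acot2. The pair counted as a single gene had 1.04 in HFpEF-scr and 1.15 in HFpEF-FoxO1-sh, which are values of the sum. No called value of a member changed sign. Between HFpEF-FoxO1-sh and HFpEF-scr the number of members called was 0, but 1 (Acot11) with DESeq2, and 0 to 1 without 1 library. The number of all genes called there, 486, was 876 with DESeq2, 291 with the replicate block, and 248, 30 and 260 with the immediate early score, the clock index and the red cell score as covariates. It was 162 to 668 without 1 library, with 245, 314 and 279 without HFpEF-scr 1, 2 and 3, and 162, 253, 241 and 198 without HFpEF-FoxO1-sh 1, 2, 3 and 4. For HFpEF-scr against control the 1001 genes called were 504 in a fit of only those groups and 392 with the immediate early score, and 537 to 1106 without 1 library, with 643, 537, 598 and 546 without control 2, control 3, HFpEF-scr 2 and HFpEF-scr 4. For HFpEF-FoxO1-sh against control the 1760 calls ranged over 1228 to 2080. Same-numbered libraries did not deviate together (correlations of -0.253 to 0.159, 1 of 13 above 0.1), so the block has no base in the design. With it the log2 fold changes of Acot1 and Acot2 were 1.63 and 0.942 in HFpEF-scr and 1.64 and 1.09 in HFpEF-FoxO1-sh against control. The causes of the shifts were not tested. Acot8, with 74 to 151 expected counts per library, is the member most limited by depth.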
